A study of Mus musculus with 4 samples.

Results

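Named pseudogenes are genes whose symbol ends in -ps, or in -ps and a number, after the name of the gene they were copied from, such as Rpl31-ps8 for a copy of Rpl31. They were picked from the gene lists of a mouse fetal pancreas study by that suffix alone, and the parent of each was taken to be the symbol without it. Of the 29652 genes in any complete list, 521 had such a symbol, and they carried 294 parent names. Ribosomal-protein names (starting Rpl, Rps or Rpn) made up 229 of the 521, and the other 292 came from all other parents.

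Single-cell RNA sequencing had been done on cells of the fetal pancreas that were labelled for the epithelial surface protein EpCAM and sorted by flow cytometry, 1 library for each of 4 groups. The WT groups were Setd2 f/f embryos at E13.5 and at E15.5, and the KO groups were PdxcreSetd2 f/f embryos at the same ages, all on C57BL/6. Pdx-Cre recombines in the pancreatic epithelium, and cells of a KO embryo without recombination keep Setd2. This gene encodes the enzyme that trimethylates lysine 36 of histone H3. How many embryos went into a library is not given in the sources used here. What could be used of each library was a list of genes, so that a gene was either listed or not. Neither read counts nor levels of expression were analysed, the depth behind each list is unknown, and with 1 library a group no difference below has a replicate check or a p-value. A difference between lists is a difference between those libraries. The E15.5 WT list broke off after 167 genes, a stretch with 0 annotated -ps genes, so it gives nothing on any of them. In the other 3 lists all 10 pancreatic epithelial markers were present (among them Epcam, Pdx1, Ptf1a and Ins2), as were all 4 mesenchymal and all 3 blood markers. Of the endothelial and the neural crest markers E15.5 KO lacked Cdh5 and Foxd3, and the part of other cell types in the results was not tested. Setd2 was listed in all 3, KO included, and a listing does not check a genotype.

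A processed pseudogene arises when a messenger RNA is copied back into DNA and inserted elsewhere in the genome, usually with no introns and no promoter of its own. An unprocessed pseudogene is a duplicated gene that decayed in place. Genes with abundant messenger RNA in the germ line, ribosomal-protein genes above all, have left many processed copies, and a short read from such a copy can be hard to tell from a read of its parent. By GENCODE type 417 of the 521 were processed pseudogenes, 70 were unprocessed, 19 were typed as protein-coding and 8 as polymorphic pseudogenes, and 423 consisted of a single exon.

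The Rpl31 family shows how alike parent and copy can be. Rpl31 encodes a protein of the large ribosomal subunit. The first 150 coding bases of the parent (gene at chr1:39367842-39371911, plus strand) are set here beside the same stretch of 5 copies, all read from GENCODE transcripts on GRCm38. Letters in capitals differ from the parent, and deleted bases are simply absent.
Rpl31: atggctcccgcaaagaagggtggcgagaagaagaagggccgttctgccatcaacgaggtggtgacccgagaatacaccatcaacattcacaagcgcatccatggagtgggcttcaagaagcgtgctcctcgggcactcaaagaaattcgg
Rpl31-ps8: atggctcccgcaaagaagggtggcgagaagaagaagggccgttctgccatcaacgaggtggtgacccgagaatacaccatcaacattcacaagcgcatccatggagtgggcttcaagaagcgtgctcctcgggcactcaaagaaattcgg
Rpl31-ps3: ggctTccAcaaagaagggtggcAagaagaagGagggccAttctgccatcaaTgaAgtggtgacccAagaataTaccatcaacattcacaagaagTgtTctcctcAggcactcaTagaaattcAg
Rpl31-ps20: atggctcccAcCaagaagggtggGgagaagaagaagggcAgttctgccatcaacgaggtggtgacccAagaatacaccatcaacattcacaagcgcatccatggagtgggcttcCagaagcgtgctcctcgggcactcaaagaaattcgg
Rpl31-ps5: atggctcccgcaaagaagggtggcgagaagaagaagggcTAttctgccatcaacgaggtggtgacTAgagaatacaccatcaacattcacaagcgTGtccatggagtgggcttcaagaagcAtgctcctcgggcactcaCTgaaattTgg
Rpl31-ps25: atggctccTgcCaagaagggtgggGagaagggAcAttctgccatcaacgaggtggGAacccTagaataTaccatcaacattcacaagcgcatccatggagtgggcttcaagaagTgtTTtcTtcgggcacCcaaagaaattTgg
Rpl31-ps8 (chr15:90764507-90764656, minus strand) had 0 substitutions in this stretch and was in all 3 complete lists. Rpl31-ps20 (chr19:30160620-30160769, plus strand) had 6 and was listed in E13.5 KO only. Rpl31-ps5 (chr5:20806090-20806239, plus strand) had 10 and was in both E13.5 lists but not in E15.5 KO. Rpl31-ps25 (chr17:81791790-81791933, minus strand) had 15 substitutions and 6 deleted bases, and no list held it. Rpl31-ps12, not shown, was in no list either, although its identity to the parent was 98.9%. Rpl31-ps3 (chr14:16225023-16225146, plus strand) had 14 substitutions, lacked 24 bases, began at coding base 3 and was in all 3 lists.

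The E13.5 WT list named 397 of the 521, that of E13.5 KO 435 and that of E15.5 KO 420. All 3 lists shared 334 of them, which is 64.1%. A further 63 were in exactly 2 lists, and 124 were in 1. Those in 1 list comprised 48 of the E13.5 KO library, 43 of E15.5 KO and 33 of E13.5 WT. Among those in 2 lists, 33 were in both KO lists, 20 in both E13.5 lists, and 10 in E13.5 WT and E15.5 KO. Of all 29652 genes in any complete list, E13.5 WT held 25463, E13.5 KO 26341 and E15.5 KO 25474. How all genes split over 1, 2 or 3 lists was not counted. Whether the split above is particular to named pseudogenes was therefore not tested.

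Copies of ribosomal-protein genes were listed more steadily than the others. Of the 229 ribosomal ones 173 (75.5%) were in all 3 lists, against 161 of 292 (55.1%) of the others. The step was larger when the copies in no list were counted too. Without the copies listed under another symbol, the annotation holds 294 ribosomal -ps genes. Of these 229 (77.9%) were in some list, against 292 of 1249 others (23.4%). The gap was narrower among processed pseudogenes alone, where 225 of 288 ribosomal ones (78.1%) and 192 of 385 others (49.9%) were listed. With the parent required to be in all 3 lists as well, 159 of 280 processed non-ribosomal copies (56.8%) were listed. Unprocessed pseudogenes were listed least, with 70 of 737 (9.5%) in some list and 23 (3.12%) in all 3.

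**Figure D1:**
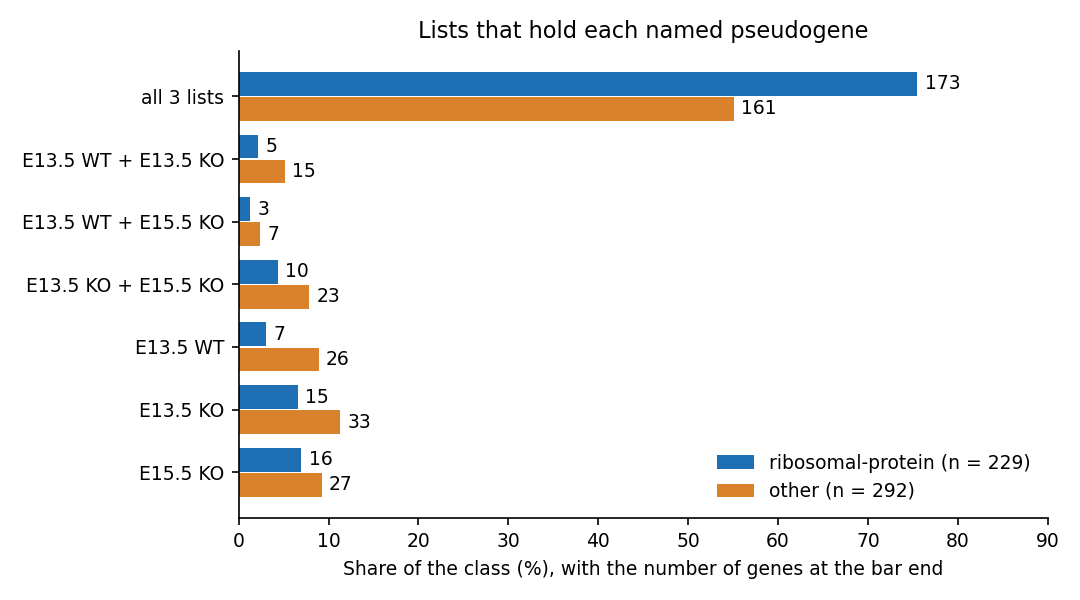
Share of each class (percent, x axis) in each combination of the 3 complete lists (y axis), for ribosomal-protein parents (n = 229) and other parents (n = 292), with the number of pseudogenes at the bar end. The combination of all 3 lists is the longest bar for both classes, at 75.5% and 55.1%.

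By parent, the families differed in how completely they were listed. With at least 3 annotated copies as the limit there were 31 ribosomal families, and each had a listed member. In 10 of them every annotated copy was in some list under its -ps symbol. The largest in the lists was Rpl31, with 18 of 24 copies listed and 14 in each library. The 14 in each library were not the same copies, since 11 were in all 3. Rpl21, another large-subunit protein, had 14 of 15 copies listed. Rps12, a small-subunit protein, had as many annotated copies as Rpl31, but 10 listed under a -ps symbol and 13 in no list. All 6 copies of Rpl35a were in all 3 lists. So were all 8 copies listed under a -ps symbol of Rpl17 and of Rpsa, the small-subunit protein also known as the laminin receptor. Rps19 was more uneven, with 12 of 14 copies listed, of which E15.5 KO held 11, E13.5 KO 10 and E13.5 WT 7. Rpl26 was the sparsest of the ribosomal families with 4 or more listed copies: E13.5 WT held 1, E13.5 KO 2 and E15.5 KO 1, and no copy was in all 3.

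Of 34 non-ribosomal families 19 had a copy listed under a -ps symbol and 15 had none, among them Fkbp1a, with 1 of 3 copies listed under another symbol. Hmgb1, which encodes an abundant chromatin protein, had 9 of 10 copies listed, all 9 in all 3 lists. Their identity to the parent ran from 95.8% in Hmgb1-ps8 to 98.6% in Hmgb1-ps7 and Hmgb1-ps9, and the copy in no list, Hmgb1-ps11, was at 91.5%. Cbx3 encodes a heterochromatin protein, and its copies were listed 5 times in each E13.5 library and 2 times in E15.5 KO. The pair in all 3 lists, Cbx3-ps6 and Cbx3-ps7, had 99.8% and 99.6% identity to the parent. The other listed copies, Cbx3-ps1, Cbx3-ps2, Cbx3-ps5 and Cbx3-ps8, were between 95.3% and 96.0%. Of the 2 copies in no list, Cbx3-ps3 was at 89.6%, but Cbx3-ps4 was at 96.2%, above those listed copies, and matched Cbx3-ps1 at 99.8%. Hspe1, a mitochondrial co-chaperone, had 3 of 6 copies listed, each in a different library: Hspe1-ps3 in E15.5 KO, Hspe1-ps5 in E13.5 KO and Hspe1-ps1 in E13.5 WT. Some families with a listed parent had no listed copy. Ranbp2, a protein of the nuclear pore, and Gtpbp4, a GTPase of ribosome assembly, were in all 3 lists, and 0 of 12 and 0 of 7 copies were.

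**Figure D2:**
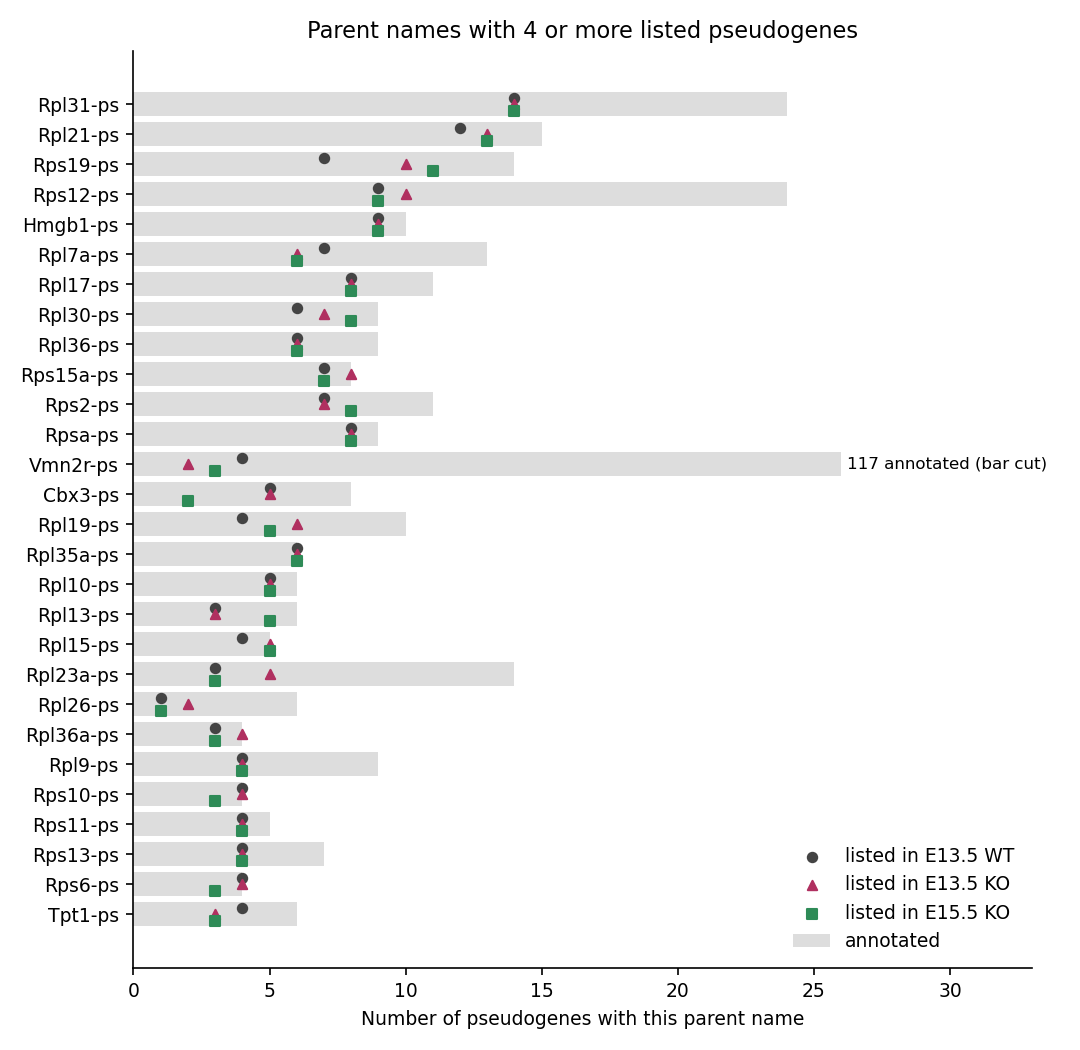
Listed copies per library (markers) and annotated copies (grey bars) for parent names with 4 or more listed pseudogenes, 1 of which is not shown. The markers coincide for Rpl35a, Hmgb1 and Rpsa and lie apart for Rps19, Cbx3 and Rpl13.

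Closeness to the parent went with listing among processed pseudogenes. The copy's transcript was aligned to the parent's, and identity is the percent of aligned bases that match. Median identity was 90.4% for the 188 aligned copies in no list, 92.4% for 65 in 1 list, 95.1% for 40 in 2 lists and 98.2% for 276 in all 3. The ordering was the same in the ribosomal class, at 90%, 91.4%, 93.9% and 98.2%, and in the other class, at 90.7%, 93.9%, 96.1% and 98.3%. Median exonic length had no such order, at 506, 468, 633 and 497 bases. A stretch of at least 150 bases without any mismatch to the parent, the length of a read here, was found in 5.32% of copies in no list, 12.3% of those in 1 list, 32.5% in 2 and 55.4% in all 3. Grouped by identity, 19 of 138 copies under 90% were in all 3 lists (13.8%). The share was 25.9% from 90% to 95%, 62.9% from 95% to 98% and 82.8% (149 of 180) from 98% up. Where the parent itself was in all 3 lists the 4 shares were 14.2%, 26.3%, 64.0% and 84.7%. These limits were set after the values were seen, pseudogenes are not replicates, and whether parent reads assigned to a copy have a part in the pattern was not tested.

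**Figure D3:**
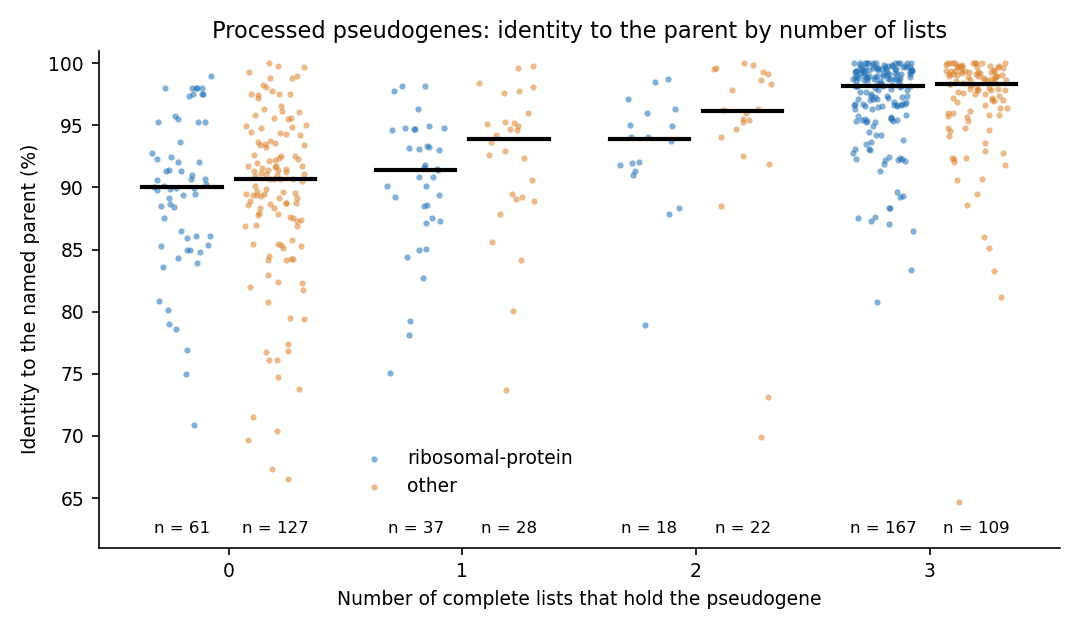
Percent identity of each processed pseudogene to its named parent (y axis) by the number of complete lists it is in (x axis), for ribosomal-protein and other parents, with the class median as a bar. The ribosomal medians run from 90% in no list to 98.2% in all 3, and those of the other parents from 90.7% to 98.3%.

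Single copies departed from this order in both directions. Wdr46-ps, with 64.7% identity to a gene for a nucleolar repeat protein, was in all 3 lists, and it lies inside Akap9 on the same strand (chr5:3989006-3990717). Rpl17-ps2 was in all 3 with 80.8%, outside any coding gene. Of the 19 copies under 90% in all 3 lists, 7 (36.8%) lay inside or overlapped a coding gene. Of the 294 processed copies in all 3 lists, 87 lay inside a coding gene and 3 overlapped one in part. Among all 673 annotated processed copies 157 lay inside a coding gene and 3 overlapped one in part. The part of host genes in these exceptions was not tested. In the opposite corner, 15 copies with 98% or more were in no list. Mageb16-ps2 matched its parent at 100%, and the parent, a melanoma-antigen family gene, was listed in E13.5 WT only. Rps12-ps11 to Rps12-ps15 are 5 copies on the X chromosome, each at 98% to Rps12 and each with a 100% match among the other copies, and none was listed. A last set of 16 copies at 98% or more was in 1 or 2 lists. Pgam1-ps2, a 765-base copy of the glycolytic enzyme phosphoglycerate mutase with 100% identity, was in both KO lists and not in E13.5 WT. Kansl2-ps (99.9%, copy of a subunit of a histone acetyltransferase complex) had the same listing. Gapdh-ps15, at 99.5% on the Y chromosome, was in E13.5 WT and E15.5 KO. Among copies in 1 or 2 lists, Pgam1-ps2, Kansl2-ps, Nutf2-ps2, Rnf170-ps and Ywhaq-ps3 had the highest identities. The lowest of these copies in 1 or 2 lists were Minpp1-ps (69.9%), Fau-ps2 (73.2%), Rab9b-ps1 (73.7%), Rpl36a-ps4 (75.1%) and Rpl36-ps1 (78.1%).

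Copies can also be alike among themselves. For 276 of the 521, another -ps gene matched over at least 90% of both lengths, and for 40 it did so at 99% identity or more. Of these 40, 28 had the same listing as their match. For comparison, 334 of the 521 (64.1%) were in all 3 lists. How often copies less alike share a listing was not counted. In 6 the match was exact. Rpl35a-ps2, Rpl35a-ps3, Rpl35a-ps4 and Rpl35a-ps6 are 4 of them, on 4 different chromosomes, and all were in all 3 lists. The remaining pair, chosen for display after its listing was seen, is Rps19-ps1 (chr14:53213730-53214167) and Rps19-ps2 (chr14:52902793-52903230). Both are on the plus strand of the same chromosome, and their first 150 bases follow the parent's, with the differences from Rps19 in capitals.
Rps19: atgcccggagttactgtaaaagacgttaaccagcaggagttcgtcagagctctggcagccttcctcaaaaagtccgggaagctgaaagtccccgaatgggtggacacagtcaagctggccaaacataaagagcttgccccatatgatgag
Rps19-ps1: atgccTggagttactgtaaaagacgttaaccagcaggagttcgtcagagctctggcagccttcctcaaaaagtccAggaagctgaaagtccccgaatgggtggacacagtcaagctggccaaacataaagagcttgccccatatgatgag
Rps19-ps2: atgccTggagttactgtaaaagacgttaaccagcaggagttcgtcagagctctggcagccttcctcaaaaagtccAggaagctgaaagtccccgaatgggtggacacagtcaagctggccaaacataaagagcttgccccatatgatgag
Each differs from Rps19 by 2 bases in this stretch and by none from the other. Rps19-ps1 was listed in E13.5 KO only and Rps19-ps2 in E15.5 KO only. The KO lists thus gave opposite entries to a pair of identical sequences, and E13.5 WT held neither.

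The comparison of KO with WT at E13.5 asks which genes were listed in the library with deletion of Setd2 by Pdx-Cre and not in its control, and the reverse. Of 478 named pseudogenes in either list 354 (74.1%) were shared, 81 were found in KO alone and 43 in WT alone. Over all 28204 genes in either list 9.72% were in KO only and 6.61% in WT only. For the named pseudogenes the shares were 16.9% in KO only and 9% in WT only. Protein-coding genes were at 3.16% in KO only and 2.9% in WT only, and the annotated pseudogenes without a -ps name at 22.8% and 12.9%. Both shares for the named pseudogenes lay between those classes. The KO list was also the longer, with 26341 genes against 25463, and the part of list length in the excess was not tested. Within the class, ribosomal copies gave 25 in KO only and 10 in WT only of 213, processed copies of other parents 30 and 14 of 180, and unprocessed pseudogenes 20 and 15 of 62. Median identity to the parent was 98.1% for processed copies in both lists, 93.9% for those in KO only and 90.7% for those in WT only.

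Among the 81 in KO only, 33 were also in E15.5 KO and 48 were in no other complete list. That split was not counted over all genes, and a link with the deletion was not tested. Most of the 30 with the longest exons were of other types than processed. They included Itih5l-ps, Nlrp1c-ps (of an inflammasome sensor family), Speer6-ps1, Akp-ps1 (alkaline phosphatase), Trim30e-ps1, Pla2g4c-ps, Art2a-ps, H2-T-ps (a class I histocompatibility gene) and Mlnr-ps (motilin receptor). Chemoreceptor copies were Vmn1r-ps32, Vmn2r-ps134, Olfr1185-ps1, Olfr947-ps1, Olfr505-ps1 and Olfr858-ps1. Cytochrome P450 copies were Cyp2c52-ps, Cyp21a2-ps and Cyp2b27-ps. The rest were mostly processed copies. Akt2-ps (98.6% identity) and Ccnd3-ps (96.3%), of a kinase of insulin signalling and a cyclin, were in both KO lists, as were Kansl2-ps, Matr3-ps2, Tubb4b-ps2 and Rplp0-ps1, which lies inside Flg. Kat2b-ps (95.1%, of a histone acetyltransferase), Gad1-ps (94.2%, of the enzyme that makes GABA) and Hspd1-ps4 (92.6%, of a mitochondrial chaperonin) were in E13.5 KO alone. Tubb2a-ps2, Btg1-ps2 and Actg-ps1 had that listing too.

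Among the 43 in WT only, 10 were also in E15.5 KO and 33 were in no other complete list, a split likewise not counted over all genes. Genes of other types than processed included Mgam2-ps (an intestinal maltase-glucoamylase), Clca4c-ps, Btnl5-ps, Psg-ps1, Tmem181c-ps and C4bp-ps1. The receptor copies were Olfr104-ps, Olfr753-ps1, Olfr300-ps1, Olfr333-ps1, Vmn2r-ps26, Vmn2r-ps84 and the bitter-taste Tas2r141-ps4. Cyp2d37-ps, Cyp2b26-ps and Mup-ps23 were shared with E15.5 KO. The processed copies included Rpl7a-ps1 (91.4%), Rpl7a-ps14 (89.4%) and Rpl26-ps6 (90.1%), and, shared with E15.5 KO, Rpl7a-ps12 (94.1%) and Mrto4-ps1 (98.3%). Speer5-ps1, Eif3s6-ps4, Amd-ps5, Hmgb3-ps, Cbx3-ps5, Csnk2a1-ps1, Tpt1-ps2 and Gapdh-ps15 were also among the longest 30. Of the Rpl7a copies, 6 were in the KO list and 7 in the WT list, so copies of 1 parent were found on both sides.

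**Figure D4:**
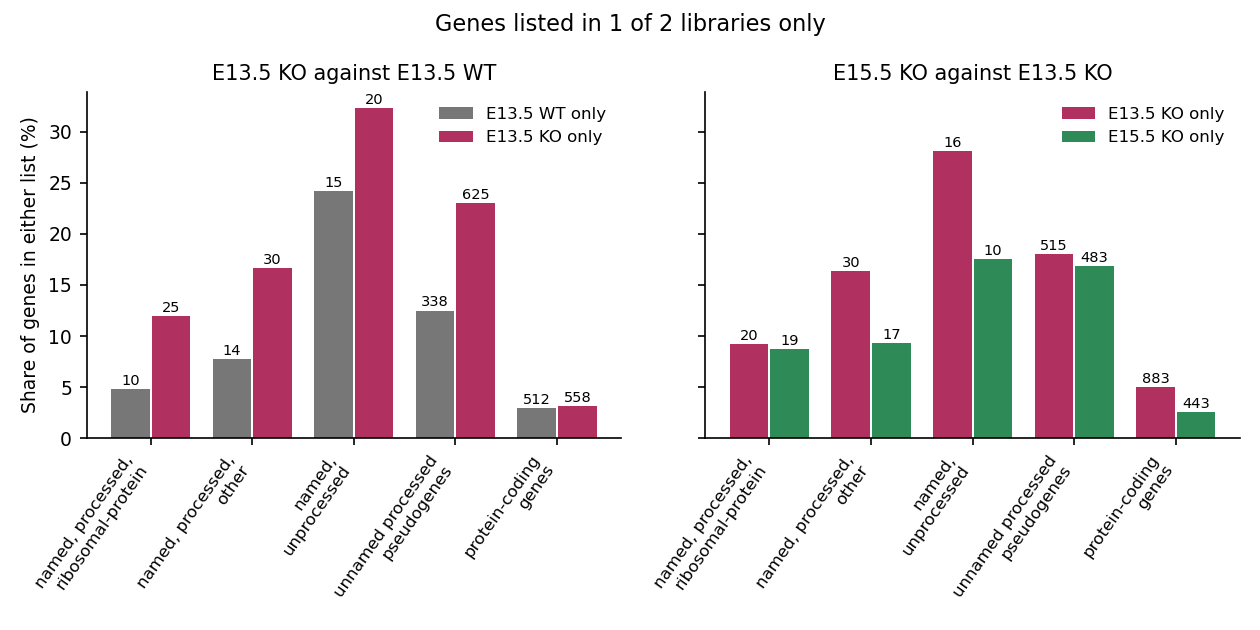
Share of genes in 1 list only, as percent of the genes in either list (y axis), by gene class (x axis), with E13.5 KO against E13.5 WT on the left and E15.5 KO against E13.5 KO on the right; the number above each bar is its gene count. In both panels the named processed pseudogenes, ribosomal and other, lie above protein-coding genes and below the processed pseudogenes without a -ps name, and the unprocessed ones are the highest.

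The comparison of KO embryos at the different ages uses the same E13.5 KO library, so the comparisons are not independent of each other. Of 488 in either list 367 (75.2%) were in both, 68 in E13.5 KO only and 53 in E15.5 KO only. Over all genes 10.4% were in E13.5 KO only and 7.37% in E15.5 KO only, and for the named pseudogenes the shares were 13.9% and 10.9%. Ribosomal copies were even, with 20 in E13.5 only and 19 in E15.5 only. Processed copies of other parents gave 30 and 17, and unprocessed pseudogenes 16 and 10. Identity to the parent was again lower in what differed, with medians of 98.2% in both lists, 93.9% in E13.5 only and 93.7% in E15.5 only.

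Listed in E15.5 KO and not in E13.5 KO were 8 olfactory receptor copies, 7 of them among the longest 30: Olfr1175-ps, Olfr718-ps1, Olfr548-ps1, Olfr911-ps1, Olfr1532-ps1, Olfr650-ps1 and Olfr405-ps1. Vmn2r-ps54, Vmn1r-ps128, Zp4-ps (an egg-coat glycoprotein), Casp16-ps and Rhox3b-ps were further genes of this set. The processed copies in it included Nlk-ps1 (94.6%), Slc39a1-ps (97.7%, of a zinc transporter), Zfp36l1-ps (94.7%), Atf1-ps (98.4%), Rnf170-ps (99.7%), Ywhaq-ps2 (95.2%), Rps2-ps2 (89.2%) and Rpl13-ps5 (88.6%), beside Gstm2-ps1, Rps7-ps2 and Eif3s6-ps2. Gapdh-ps15, Rpl7a-ps12, Mrto4-ps1, Mup-ps23, Cyp2d37-ps and Cyp2b26-ps stood here as well, since E13.5 KO alone lacked them. In the reverse direction, 20 of the 68 were also in E13.5 WT. These included Mdm4-ps (94.1%, of an inhibitor of p53), Phf20-ps (94.7%), Csnk2a1-ps (95.2%, of a casein kinase subunit), Rps6-ps2 (96.0%), Minpp1-ps, Zfa-ps, Stk-ps2, Alms1-ps1, Mettl4-ps1 and Nxpe1-ps. Rpl7a-ps8, Zcchc9-ps, Fam220-ps and Rps4l-ps were in E13.5 KO alone. The 68 also held 4 olfactory and 2 vomeronasal receptor copies, among them Olfr1185-ps1, Olfr505-ps1, Olfr858-ps1 and Vmn1r-ps32.

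The parents were listed far more evenly than the copies. For 412 of the 521 (79.1%) the parent was in all 3 complete lists, and this held for 229 of 229 ribosomal copies and 183 of 292 others. Amy2-ps1 and Nlrp5-ps had a parent in 2 lists. The ribosomal-protein genes themselves were in all 3 lists for 84 of 85, with Rpl10l in none, and 59 of the 85 had a listed -ps copy. All 15 glycolytic and housekeeping parents of a chosen list were in all 3 lists. Of their 27 annotated -ps copies 18 were listed, 15 of them in all 3, but none for Pgk1 and Aldoa.

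For 107 named pseudogenes the parent name was in no list. In 104 of these the name is no gene symbol in the annotation, and the other 3 were Ccl19-ps1, Obox3-ps7 and Vamp7-ps. Copies with an absent parent name were less steadily listed, with 34 of 107 (31.8%) in all 3 lists against 298 of 412 (72.3%). Names without a gene came about in different ways. For 22 of the 104 the name was an older synonym, and for 18 of these the present gene was in all 3 lists. Smt3h2 is Sumo2, a small protein modifier, Eif3s6 is Eif3e, a translation initiation subunit, Fth is the ferritin chain Fth1, Glns is glutamine synthetase, Glul, and Txn is the thioredoxin Txn1. Receptor and enzyme families made up another group, with 19 Olfr, 10 Vmn and 6 Cyp genes whose stem names no gene of its own.

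All 3 annotated Smt3h2 copies were listed, none of them in every complete list. Their first 150 coding bases are given with those of Sumo2 (gene at chr11:115523102-115536276, minus strand), with differences in capitals.
Sumo2: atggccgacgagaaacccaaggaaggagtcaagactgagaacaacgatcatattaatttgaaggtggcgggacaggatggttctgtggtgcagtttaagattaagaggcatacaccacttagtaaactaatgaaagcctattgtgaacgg
Smt3h2-ps: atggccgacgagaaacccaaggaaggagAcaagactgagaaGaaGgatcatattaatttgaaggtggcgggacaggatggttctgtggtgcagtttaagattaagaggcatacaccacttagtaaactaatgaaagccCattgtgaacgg
Smt3h2-ps2: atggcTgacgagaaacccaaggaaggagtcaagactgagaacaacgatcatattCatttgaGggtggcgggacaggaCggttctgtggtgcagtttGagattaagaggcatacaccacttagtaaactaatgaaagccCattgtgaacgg
Smt3h2-ps4: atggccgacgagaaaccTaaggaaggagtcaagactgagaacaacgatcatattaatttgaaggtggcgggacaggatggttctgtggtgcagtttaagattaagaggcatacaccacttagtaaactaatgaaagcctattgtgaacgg
Smt3h2-ps4 (chr1:14840007-14840156, minus strand) differs by 1 base here and was in E13.5 WT and E15.5 KO. Smt3h2-ps (chrX:7752130-7752279, plus strand) differs by 4 and Smt3h2-ps2 (chr7:127397978-127398127, plus strand) by 6, and both were in E13.5 KO only. Sumo2 itself was in all 3 lists.

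A symbol did not always name the closest gene. Of 417 pseudogenes with an annotated parent, the parent was the best match for 394 and gave no match at all for 5. Rps7-ps2 matched Odc1, ornithine decarboxylase, at 94.8% over 67.9% of its length. Rab9b-ps1 was closer to Rab9 (96.9%) than to Rab9b (73.7%), Tubb2a-ps2 to Tubb2b (97.4%) than to Tubb2a (94.9%), and Gstm2-ps1 to Gstm1 (97.9%) than to Gstm2 (85.6%). With the best match in place of the name, 464 of 521 had a parent in all 3 lists.

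Few chemoreceptor copies were listed. Of 299 annotated olfactory receptor -ps genes 19 (6.35%) were in some list, and of 237 vomeronasal ones 10 (4.22%). The share was 33.8% over all annotated -ps genes and 9.5% over the unprocessed ones. Of the 19 olfactory ones 16 were in 1 list, 1 in 2 and 2 in all 3, namely Olfr1369-ps1 and Olfr1372-ps1. Of the 10 vomeronasal ones 9 were in 1 list and none in all 3. For comparison, of the 70 listed unprocessed pseudogenes 33 were in 1 list, 14 in 2 and 23 in all 3. Of other families of duplicated genes, 7 of 30 Cyp, 2 of 27 Mup (major urinary protein), 1 of 17 Defa (defensin) and 1 of 48 Obox copies were listed. None of 29 Scgb (secretoglobin), 11 Klk (kallikrein) and 11 Mrgpr copies was.

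Where a processed copy sits in another gene also went with its listing. Of those lying wholly inside a protein-coding gene on the opposite strand 71 of 89 (79.8%) were listed, of those inside on the same strand 43 of 68 (63.2%), and of those outside any coding gene 300 of 513 (58.5%). The groups were not alike in other respects: median identity to the parent was 96.4%, 95.6% and 95.1%, and 49, 19 and 215 of the aligned copies in them were ribosomal. Whether the place, the identity or the class goes with listing on its own was not tested. Reads of a host gene and of a copy within it on the same strand cannot be told apart by a listing.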

How the data were processed

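The files deposited by the authors for each library hold an Ensembl gene identifier and a symbol per line, with no counts and no levels, so a gene was scored as listed or not listed. Seurat and the build mm10 come from the submitters' processing notes. For the aligner, its annotation, any filter on cells and the criterion for listing a gene, the information is not given in the sources used here. Members, gene lists and comparisons were chosen with earlier results of these data known.

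Gene types, coordinates and transcripts came from GENCODE mouse release M21 (GRCm38). Of 1556 annotated -ps genes 520 were listed under that symbol, 14 under another symbol (not members) and 1022 in no complete list. For 1 member, Cox20-ps, the identifier has another symbol in the annotation. Denominators of annotated copies leave out the 14, except for family sizes, which include them. Of the unlisted genes, 11 have identifiers beyond the last in any list. A parent counted as listed when its symbol was in a list. Each copy's longest transcript was aligned to its parent's transcripts and to all protein-coding ones with BLAST 2.17.0 (blastn, word size 11, E-value limit 1e-5, plus strand, best local alignment). This step was tested on simulated coding sequences that held substitutions only. Copies with deletions, insertions or partial alignments were not covered by that test. Python 3.11.15 and pandas 2.3.3 did the counting.

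No test was run, because each of the 4 groups has 1 library. The genes named are the 30 with the longest exons in each direction of a comparison, families with at least 3 annotated copies, members with an unlisted parent, and the 5 highest and 5 lowest identities among members that differ. Of the families and the unlisted parents the larger and the resolved ones are named, and the rest are given as counts. A few of the genes named by this rule are left out of the text. Alternatives covered the class of parents, the denominator, the way a parent is assigned and, added after the data were seen, symbols taken from the annotation, processed members alone and a minimum aligned length of 80%.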

Additional observations from a re-analysis of the deposited data

How the results depend on the processing

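Results here are listings in single libraries, so their limit is that depth, cell number and the listing rule are unknown, and a gene not listed is not shown to be absent. With non-ribosomal copies only, E13.5 WT held 209 members, E13.5 KO 232 and E15.5 KO 218, and 34 were in E15.5 KO and not in E13.5 KO. Counted over all annotated copies, the share in all 3 lists became 58.8% for ribosomal and 12.9% for other parents. With processed members alone, an alternative added after the data were seen, the share in all 3 lists was 65.1% for the other parents. Resolving parents by synonym gave 430 members with a parent in all 3 lists, and the best sequence match gave 464. No result changed direction under these alternatives. No paired analysis was possible because a single library stands for each group. Leaving out a library removes its comparison, so no such value is given.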

Other observations

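Genes named as related sequences, with a symbol ending in -rs and a number, are a second kind of named copy. Of 8 in the lists, E13.5 WT held 7, E13.5 KO 6 and E15.5 KO 8, and 6 were in all 3. Hmgb1-rs18 and Prdx2-rs3, the copies that differed, are named for a chromatin protein and a peroxiredoxin.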
